A study of Mus musculus with 12 samples.

Results

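Branched-chain amino acid and ketone body oxidation was followed through 10 genes in EDL, the extensor digitorum longus, which in mice is built mainly of fast-twitch fibers. The genes were Bcat2, Bckdha, Bckdhb, Dbt, Bckdk, Hibadh, Ivd, Oxct1, Bdh1 and Acat1. They were taken by gene name from a table of 17752 genes, each name matched 1 row, and all 10 passed the filter of a mean of at least 0.5 FPKM (fragments scaled to transcript length and to sequencing depth, so that levels can be compared between genes) that left 12744 genes for testing. The libraries labelled Nrip1KO had higher means than those labelled Ctrl for all 10 genes in sedentary and in trained muscle, except that Dbt, Ivd and Bckdk lost this in sedentary muscle (log2 fold changes of -0.03, -0.12 and 0.00) when every library was rescaled to the same FPKM sum, a rescaling that moved the median of all genes by -0.14 there. Ivd also lost it, down to -0.06, without Ctrl Sedentary replicate 1, Nrip1KO Sedentary replicate 1 or Nrip1KO Sedentary replicate 2. Over all genes tested, the median log2 fold change was 0 in sedentary and 0.01 in trained muscle. Bckdha and Oxct1 passed the test in both training states. Bcat2, Hibadh and Ivd passed it in trained muscle and missed it in sedentary muscle, and for none of them was the difference between the training states significant. Of the 12 fits that left out 1 library, 4 lost the trained call of Bcat2, 10 that of Hibadh and 8 that of Ivd. Hibadh had log2 fold changes of 0.34 in sedentary and 0.32 in trained muscle, on either side of the threshold. Of all genes tested, 1.92% passed as higher in Nrip1KO in sedentary and 3.21% in trained muscle. No gene of the 10 passed the test for wheel running in either genotype, and 0% of all genes tested did.

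The study crossed genotype with training in 4 groups of 3 RNA-seq libraries. Nrip1 encodes RIP140, a coregulator that represses nuclear receptor target genes, and Nrip1KO stands for mice in which floxed Nrip1 was removed by a Cre driven by the muscle creatine kinase promoter, which is active in skeletal muscle and in heart. Ctrl stands for littermates carrying the same floxed alleles without Cre, so all 4 groups shared the floxed alleles, and all mice were males that entered at 8 weeks of age. Trained mice had 8 weeks of voluntary wheel running, mice that ran too little were removed by the study, and Sedentary mice had no wheel. No label ties a library to a separate animal, so the p-values measure the spread between these libraries.

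Leucine, isoleucine and valine are oxidized largely in muscle. BCAT2, the mitochondrial branched-chain aminotransferase, removes the amino group, and the branched-chain ketoacid dehydrogenase complex (BCKDH) then commits the carbon skeleton to oxidation. BCKDH is switched off when the kinase BCKDK phosphorylates it and switched on again by the phosphatase PPM1K. Ketone bodies made in liver are taken up by muscle, where BDH1 oxidizes beta-hydroxybutyrate to acetoacetate, OXCT1 (SCOT) activates acetoacetate with coenzyme A, and ACAT1 splits the product to acetyl-CoA.

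The targeted gene went against the genotype labels. Nrip1 stood at 3.33 ± 0.689 FPKM in Ctrl Sedentary and 15.5 ± 0.68 FPKM in Nrip1KO Sedentary, and at 3.62 ± 1.12 and 17.4 ± 3.02 FPKM in the trained groups (SD, n = 3 each). It was higher in all 6 libraries labelled Nrip1KO than in all 6 labelled Ctrl (log2 fold change 2.08, limma adjusted p = 0.000277, sedentary). The table gives 1 value per gene, so reads from the floxed exon could not be told apart from the rest of the transcript. Whether these libraries carry the wrong label was not tested, and directions below are those of the labels. Sequencing depth, read from the steps of the low values, was about 20000000 to 29100000 fragments a library, and the lowest value of any of the 10 genes in any library (5.95 FPKM) corresponds to 288 fragments on a 2-kb transcript.

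Some facts about the libraries moved with the groups and their part in the results was not tested. Mitochondrially encoded transcripts made up 51.2 to 52.8% of the summed FPKM in Nrip1KO Sedentary and 42.2 to 47.3% in the other groups. The fast-fiber markers of EDL were present in every library (Myh4, Actn3, Pvalb, Tnnt3 and Mybpc2, summing to 43000 to 64600 FPKM), of which Actn3 and Mybpc2 passed the test as lower in Nrip1KO in both training states (Actn3 log2 fold change -0.90 sedentary and -0.75 trained). The summed slow-fiber markers were uneven within groups, from 38.7 FPKM in Ctrl Trained replicate 3 to 331 FPKM in Ctrl Trained replicate 2. Adipocyte markers summed to 11.2 to 24.1 FPKM in Ctrl Sedentary and 41.5 to 109 FPKM in Nrip1KO Sedentary, and to 32.6 to 72.7 FPKM in Ctrl Trained and 40.5 to 109 FPKM in Nrip1KO Trained, with replicate 3 of both Nrip1KO groups at 109 FPKM. Most of each sum was Cfd (7.83 to 19.2 FPKM in Ctrl Sedentary, 32.7 to 82 FPKM in Nrip1KO Sedentary). In sedentary muscle Cfd and Cidec did not overlap between the genotypes, while Adipoq, Plin1 and Lep did. No adipocyte marker tested was called in either training state. The liver markers Alb, Apoa1 and Ttr summed to 253 to 436 FPKM in the sedentary libraries and 67.5 to 287 FPKM in the trained ones.

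Promoters were read for the 8 genes with an entry in the RefSeq table (GRCm38.p6, 250 bases before to 50 after each start, 11 promoters). Dbt and Acat1 had none there. The sequences are shown because nuclear receptors, the partners of RIP140, bind the half-site AGGTCA. On both strands that half-site was found in 2 of the 11 promoters, against 16.3% of all 32851 promoters in the table. The first lies at chr9:83925008-83925033 on the plus strand, 119 bases before a Bckdhb start, and the second at chr6:52640266-52640291 on the minus strand, 19 bases after the Hibadh start (half-site in capitals).

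Bckdhb: gcgggccgccAGGTCAtagcgtctcc

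Hibadh: gaggcggcggAGGTCAcggcgcggag

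The longer estrogen-related receptor element TNAAGGTCA, which holds the half-site, was in none of the 11 and in 1.28% of all promoters. A direct repeat of half-sites with 1 base between them was in 0 of the 11 (0.0396% of all), the NRF1 core GCATGCGC in 0 (2.71% of all) and the ETS site CCGGAAGT in 0 (3.89% of all). For the genes called in both training states, the 250 bases upstream of the RefSeq start held none of these letters and are shown whole in lower case. They lie at chr7:25658762-25659011 on the minus strand for Bckdha and at chr15:4026178-4026427 on the plus strand for Oxct1. In GENCODE M21 these genes start further upstream, at chr7:25658981 and chr15:4026383. Most of the Bckdha stretch and part of the Oxct1 stretch thus lie inside the gene in that annotation.

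Bckdha: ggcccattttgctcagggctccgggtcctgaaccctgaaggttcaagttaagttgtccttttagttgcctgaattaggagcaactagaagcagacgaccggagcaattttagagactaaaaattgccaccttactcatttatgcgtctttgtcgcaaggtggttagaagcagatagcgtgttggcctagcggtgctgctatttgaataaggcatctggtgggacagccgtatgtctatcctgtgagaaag

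Oxct1: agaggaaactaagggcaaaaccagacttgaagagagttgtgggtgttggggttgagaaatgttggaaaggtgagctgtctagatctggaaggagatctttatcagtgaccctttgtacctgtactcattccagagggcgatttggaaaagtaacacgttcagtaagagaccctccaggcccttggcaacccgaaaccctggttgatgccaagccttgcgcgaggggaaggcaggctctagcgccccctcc

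All 10 genes were well expressed in EDL. On the FPKM scale, Oxct1 was the most abundant, at a mean of 174 FPKM over the 12 libraries, and its lowest library (132 FPKM) lay above every library of the other 9 genes. Hibadh (107 FPKM), Bckdk (101 FPKM), Ivd (95.5 FPKM), Bckdha (92.3 FPKM) and Acat1 (87.8 FPKM) followed with ranges that overlapped, so their order was not resolved. Bcat2 (46.7 FPKM) and Bckdhb (36.1 FPKM) came next, and Dbt (16.1 FPKM) and Bdh1 (15.6 FPKM) were the lowest and overlapped each other. Relative to the 12744 genes tested, the means ran from the 71.9th to the 96.6th percentile. Bdh1 stood apart in its spread: its highest library was 5.05 times its lowest, against 1.32 to 1.88 times for the other 9, and its SD within groups was 0.558 on the log2 scale, against 0.0857 to 0.17 for the others and a median of 0.171 over all genes tested.

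**Figure D1:**
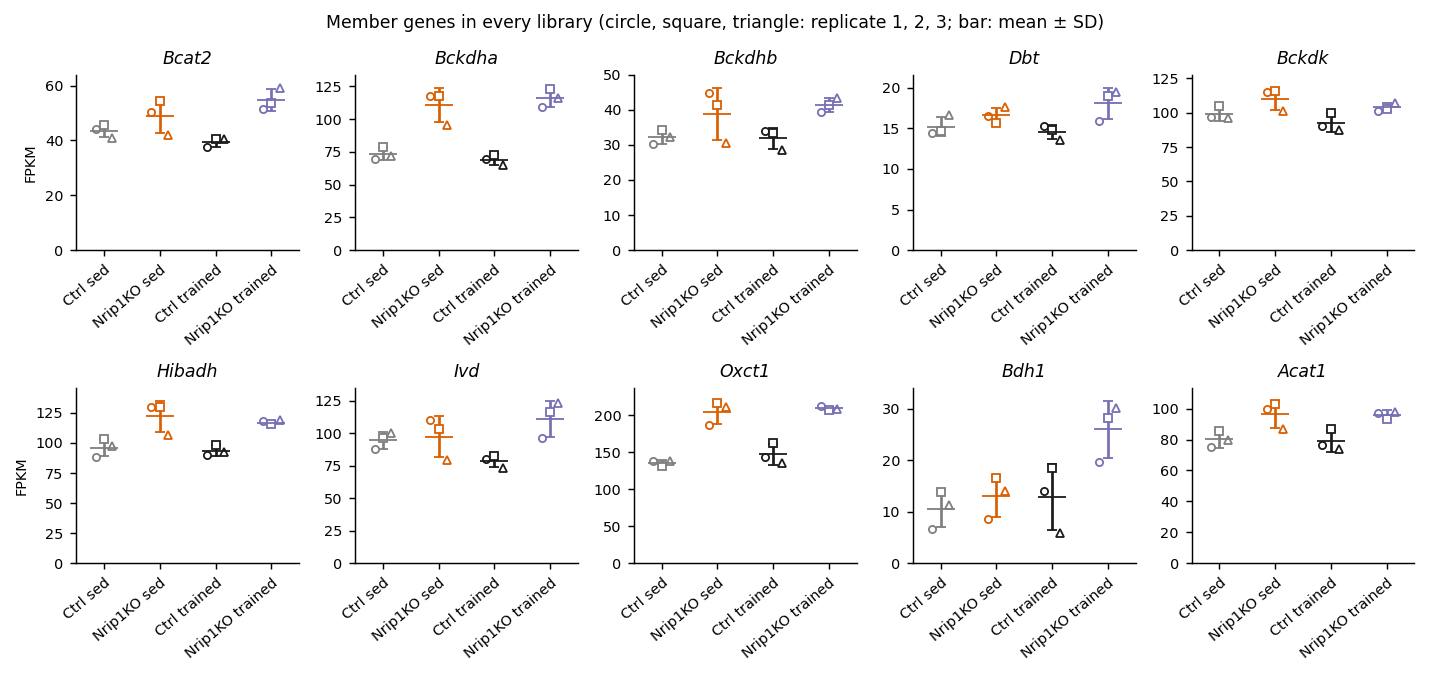
FPKM of the 10 genes (vertical axes from 0, 1 panel a gene) in each of the 4 groups; open symbols are libraries, with circle, square and triangle for replicates 1, 2 and 3, and the bar is the mean with its SD (n = 3). In trained muscle the 3 Nrip1KO libraries lay above the 3 Ctrl libraries in every panel, an order found for 13.9% of all genes tested. Bdh1 was the most scattered gene.

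Genes were compared with limma on log2(FPKM + 0.5), and a gene was called at a Benjamini-Hochberg adjusted p under 0.05, over all genes tested, with a fold change over 1.2. Fold changes are on the log2(FPKM + 0.5) scale. In sedentary muscle, 2 of the 10 genes were called, both higher in Nrip1KO, against 3.51% of all genes called in either direction and 1.92% called higher. In trained muscle, 5 of the 10 were called, all higher in Nrip1KO, against 5.98% of all genes called in either direction and 3.21% called higher. The median log2 fold change of the 10 was 0.26 in sedentary and 0.42 in trained muscle, beside medians of 0 and 0.01 over all genes tested. With libraries rescaled to the same sum, the medians of the 10 were 0.10 and 0.48, beside -0.14 and 0.06 over all genes. Of all calls, 54.8% of 447 were higher in sedentary and 53.7% of 762 in trained Nrip1KO muscle; with libraries rescaled to the same sum these became 18.6% of 652 and 80.9% of 679, and with the same sum over nuclear genes 82.7% of 480 and 75.8% of 615.

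The count in trained muscle depended on single libraries. The 5 called genes became 3 without any of Ctrl Sedentary replicates 1, 2 or 3, and 2 without Ctrl Trained replicate 1, Ctrl Trained replicate 3, Nrip1KO Trained replicate 2 or Nrip1KO Trained replicate 3, while leaving out Nrip1KO Sedentary replicate 3 gave 7. The sedentary count was 4 without that same library.

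Transcripts for the first step of branched-chain amino acid oxidation were higher in Nrip1KO than in Ctrl within trained muscle. Bcat2 (chr7:45570153-45589711, GENCODE M21 on GRCm38, as for all gene positions here) was at 37.5, 40.6 and 40.7 FPKM in Ctrl Trained and at 51.6, 53.6 and 59.3 FPKM in Nrip1KO Trained. These groups did not overlap, and the fold change was 1.38 (log2 0.46, SE 0.0963, limma adjusted p = 0.0183). In sedentary muscle, Ctrl libraries stood at 44.1, 45.6 and 40.8 FPKM and Nrip1KO libraries at 50.4, 54.3 and 41.9 FPKM, where replicate 3 of Nrip1KO fell among the Ctrl values (log2 0.16, adjusted p = 0.477). The trained call was lost without Ctrl Trained replicate 1, Ctrl Trained replicate 3, Nrip1KO Trained replicate 2 or Nrip1KO Trained replicate 3 (adjusted p 0.0503 to 0.0843).

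Of the BCKDH complex, the alpha subunit of the decarboxylase carried the clearest difference. Bckdha (chr7:25629946-25658981) was at 69.8, 78.5 and 72.1 FPKM in Ctrl Sedentary and at 118, 118 and 95.3 FPKM in Nrip1KO Sedentary. In trained muscle it was at 69.3, 73 and 65.2 FPKM in Ctrl and at 109, 123 and 116 FPKM in Nrip1KO. All 6 Nrip1KO libraries were above all 6 Ctrl libraries, an order found higher in this way for 2.97% of all genes tested. The fold change was 1.5 in sedentary muscle (log2 0.58, SE 0.0928, limma adjusted p = 0.00691) and 1.67 in trained muscle (log2 0.74, SE 0.0928, adjusted p = 0.0014). The sedentary call was lost when the fit held only the 6 sedentary libraries (adjusted p = 0.0565). In the annotation, 1171 of the 1899 exonic bases of Bckdha (61.7%) lie opposite exons of B3gnt8, and the library kit did not mark strand; B3gnt8 was listed at 0.836 to 1.76 FPKM. Opposite-strand exons also cover 15.9% of the exonic bases of Bcat2, 13.7% of those of Bdh1 and 12.6% of those of Oxct1.

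The partner subunits were higher by smaller amounts that missed the threshold. Bckdhb, the beta subunit, was at 30.2, 34.3 and 32.2 FPKM in Ctrl Sedentary, at 44.7, 41.5 and 30.5 FPKM in Nrip1KO Sedentary, at 33.9, 33.3 and 28.4 FPKM in Ctrl Trained and at 39.4, 41.3 and 43.4 FPKM in Nrip1KO Trained. Only replicate 3 of Nrip1KO Sedentary fell within the Ctrl range. Its log2 fold change was 0.25 in sedentary (95% interval -0.03 to 0.53, adjusted p = 0.373) and 0.37 in trained muscle (0.09 to 0.65, adjusted p = 0.111), and without that library it was called in both (adjusted p = 0.0454 and 0.0265). Other libraries moved Bckdhb the other way. The limma adjusted p was 0.696 in sedentary muscle without Nrip1KO Sedentary replicate 1, and 0.306 in trained muscle without Ctrl Trained replicate 3.

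Dbt, which encodes the transacylase core of the complex, was at 14.4, 14.7 and 16.6 FPKM in Ctrl Sedentary and 16.5, 15.7 and 17.6 FPKM in Nrip1KO Sedentary, with overlap. In trained muscle it was at 15.3, 14.8 and 13.6 FPKM in Ctrl and 15.9, 19 and 19.5 FPKM in Nrip1KO, without overlap. The log2 fold changes of Dbt were 0.12 (limma adjusted p = 0.61) and 0.30 (adjusted p = 0.0871). Without Nrip1KO Trained replicate 1, the trained difference passed (adjusted p = 0.0368), and without Nrip1KO Trained replicate 3 the adjusted p was 0.267.

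The kinase that inhibits the complex was not called in either training state. Bckdk was at 96.9, 105 and 95.8 FPKM in Ctrl Sedentary and 115, 116 and 101 FPKM in Nrip1KO Sedentary, and at 90.5, 100 and 87.5 FPKM in Ctrl Trained and 101, 103 and 107 FPKM in Nrip1KO Trained. The sedentary groups overlapped and the trained groups were adjacent without overlap. The log2 fold change of Bckdk was 0.15 in sedentary (95% interval -0.01 to 0.32, adjusted p = 0.359) and 0.16 in trained muscle (-0.01 to 0.33, adjusted p = 0.255). The intervals of Bckdk include the log2 fold changes of Dbt, and the ratio of Bckdk to Dbt was not tested. Ratios of Bckdk to Bckdha and to Ppm1k within libraries are given below.

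The enzymes that act after the complex were Hibadh and Ivd. Hibadh, which oxidizes 3-hydroxyisobutyrate on the valine branch, was at 88.6, 103 and 97.3 FPKM in Ctrl Sedentary, 130, 130 and 107 FPKM in Nrip1KO Sedentary, 90.3, 98.5 and 92.4 FPKM in Ctrl Trained and 118, 116 and 119 FPKM in Nrip1KO Trained. All 6 Nrip1KO libraries exceeded all 6 Ctrl libraries. Yet its differences sat at the threshold: the log2 fold change was 0.34 in sedentary (SE 0.0845, limma adjusted p = 0.0532) and 0.32 in trained muscle (SE 0.0845, adjusted p = 0.0466). The trained call of Hibadh was lost in 10 of the 12 fits that left out 1 library (adjusted p 0.0509 to 0.141; it held without Nrip1KO Sedentary replicates 2 and 3), and the sedentary difference was called without Nrip1KO Sedentary replicate 3 (adjusted p = 0.0131). Without Ctrl Sedentary replicate 1 the sedentary adjusted p was 0.205.

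Ivd, isovaleryl-CoA dehydrogenase of the leucine branch, was called in trained muscle. It was at 87.5, 96 and 99.9 FPKM in Ctrl Sedentary and 110, 103 and 79.4 FPKM in Nrip1KO Sedentary, where replicate 3 was the lowest of the 6 (log2 fold change 0.03, 95% interval -0.24 to 0.31, adjusted p = 0.94). In trained muscle the Ctrl libraries were at 79.9, 82.3 and 73.5 FPKM and the Nrip1KO libraries at 96.1, 116 and 123 FPKM, without overlap. The trained fold change was 1.41 (log2 0.50, SE 0.124, limma adjusted p = 0.0393). The call of Ivd was lost in 8 of the 12 fits that left out 1 library, which were those without any 1 of the 6 Ctrl libraries and those without Nrip1KO Trained replicate 2 or 3 (adjusted p 0.0526 to 0.151).

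Among the ketone genes, Oxct1 was as clear as Bckdha. Oxct1 (chr15:4026383-4155344), the enzyme that commits ketone bodies to oxidation, was at 138, 132 and 138 FPKM in Ctrl Sedentary and at 187, 216 and 211 FPKM in Nrip1KO Sedentary. In trained muscle it was at 143, 163 and 135 FPKM in Ctrl and at 212, 207 and 208 FPKM in Nrip1KO. The lowest Nrip1KO library (187 FPKM) lay above the highest Ctrl library (163 FPKM). The fold change of Oxct1 was 1.5 in sedentary (log2 0.58, SE 0.0787, limma adjusted p = 0.00237) and 1.42 in trained muscle (log2 0.51, SE 0.0787, adjusted p = 0.00421). Both calls held in all 24 other settings tried.

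The step before it was too scattered to call. Bdh1 was at 6.73, 13.8 and 11.3 FPKM in Ctrl Sedentary, 8.61, 16.5 and 14 FPKM in Nrip1KO Sedentary, 14.1, 18.6 and 5.95 FPKM in Ctrl Trained and 19.7, 28.3 and 30.1 FPKM in Nrip1KO Trained. The trained Nrip1KO libraries were the 3 highest of the 12. The log2 fold change of Bdh1 was 1.1 in trained muscle (95% interval 0.24 to 1.96, adjusted p = 0.126) and 0.29 in sedentary muscle (-0.57 to 1.15, adjusted p = 0.804). Without Ctrl Trained replicate 3, its lowest library, the trained value was 0.64 (adjusted p = 0.348).

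The last step, Acat1, was at 74.9, 85.5 and 80 FPKM in Ctrl Sedentary, 99.4, 103 and 86.5 FPKM in Nrip1KO Sedentary, 76.4, 86.6 and 73.6 FPKM in Ctrl Trained and 97.3, 93 and 98 FPKM in Nrip1KO Trained. The groups did not overlap within either training state. Its log2 fold change was 0.26 in sedentary (SE 0.0861, limma adjusted p = 0.142) and 0.29 in trained muscle (SE 0.0861, adjusted p = 0.0774). The trained difference passed without Nrip1KO Sedentary replicate 3 or without Ctrl Trained replicate 2 (adjusted p 0.047 and 0.0438). Without Ctrl Trained replicate 3 the trained adjusted p was 0.229.

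**Figure D2:**
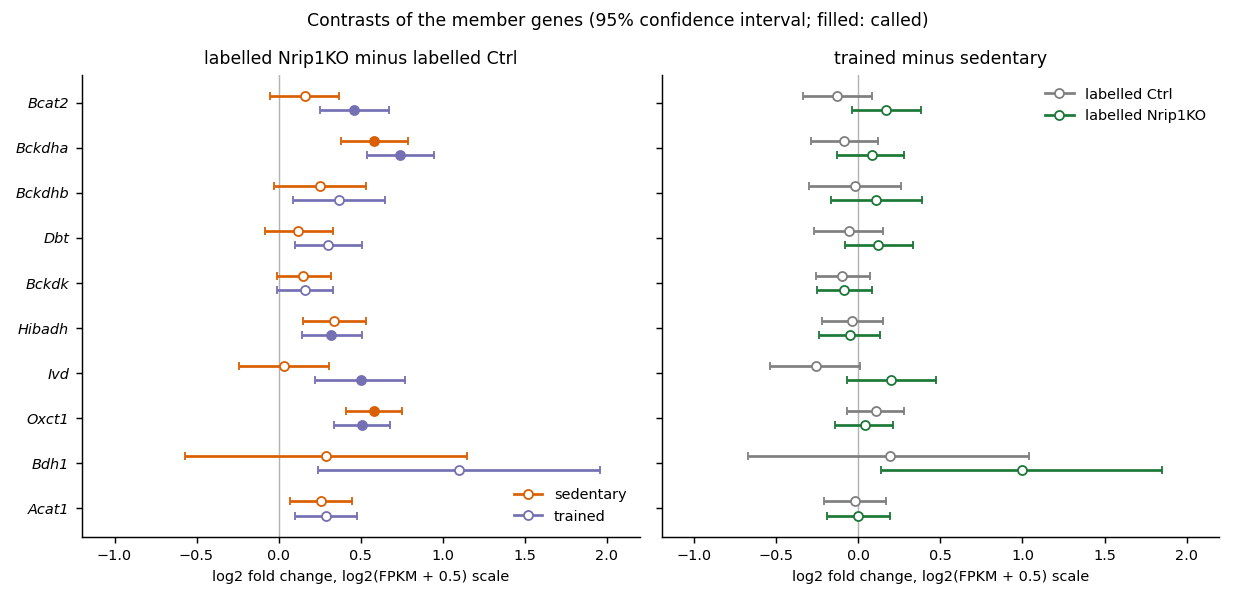
Log2 fold changes of the 10 genes on the log2(FPKM + 0.5) scale with 95% confidence intervals from limma; the left panel is Nrip1KO minus Ctrl in sedentary and trained muscle, the right panel trained minus sedentary within each label, and filled circles are called. Every left-hand point is above 0 (with libraries rescaled to the same sum, sedentary Dbt, Ivd and Bckdk were not), Bckdha and Oxct1 are filled in both states, and no point of the right panel is filled.

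Counting libraries rather than tests, all 10 genes were higher in Nrip1KO without overlap between the groups in trained muscle, beside 13.9% of all genes tested. In sedentary muscle 4 of the 10 were (Bckdha, Hibadh, Oxct1 and Acat1), beside 9.79% of all genes. The libraries were not even in this: Nrip1KO Sedentary replicate 3 was above its group mean for 3 of the 10 genes, with a median deviation of -0.17 on the log2 scale, while Nrip1KO Sedentary replicate 2 was above for 9. The same replicate 3 had the highest adipocyte marker sum of its group, 109 FPKM against 41.5 and 44 FPKM. Nrip1KO Trained replicate 3, with the same adipocyte sum, was above its group mean for 9 of the 10 genes. In bulk muscle, more cells of a type and more RNA per cell cannot be told apart.

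Wheel running was compared within each label. None of the 10 genes was called in Ctrl or in Nrip1KO, and limma called 0 of all genes (0%) in either comparison, with 1061 and 1544 genes at an unadjusted p under 0.05. The count over all genes moved with the setting: it was 30 in Ctrl without Ctrl Trained replicate 1, and 150 in Nrip1KO (95.3% higher) with libraries rescaled to the same sum, which moved the median of all genes by 0.16, while none of the 10 genes was called in either fit. The median log2 fold change of the 10 genes, trained minus sedentary, was -0.05 in Ctrl and 0.09 in Nrip1KO (0.27 with the same sum). In Ctrl, Bcat2 and Ivd were lower in all 3 trained libraries than in all 3 sedentary ones, beside 6.5% of all genes that were lower without overlap (Ivd log2 -0.26, 95% interval -0.54 to 0.01, adjusted p = 0.611; Bcat2 log2 -0.13, adjusted p = 0.772). In Nrip1KO, Bdh1 was higher in all 3 trained libraries than in all 3 sedentary ones, beside 9.4% of all genes (log2 1.0, SE 0.39, unadjusted p = 0.0266, adjusted p = 0.346). For Acat1 the running difference in Nrip1KO was 0.00 (95% interval -0.19 to 0.19) and for Oxct1 it was 0.04 (-0.14 to 0.21).

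Whether the genotype difference depended on training was tested as an interaction. No gene of the 10 passed, and limma called 0 of all genes (0%), with 989 genes at an unadjusted p under 0.05. Ivd had an interaction of 0.46 on the log2 scale (SE 0.176, unadjusted p = 0.0229, adjusted p = 0.611) and Bcat2 of 0.30 (SE 0.136, unadjusted p = 0.0479, adjusted p = 0.638). Both had lower means in trained than in sedentary Ctrl muscle and higher means in trained than in sedentary Nrip1KO muscle. For Bckdha and Oxct1 the interactions were 0.16 (95% interval -0.13 to 0.45) and -0.07 (-0.32 to 0.17).

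Ratios of paired genes within a library do not depend on the scaling between libraries. The 5 pairs were set by their roles, among genes chosen with earlier results of these data known. The genotype labels were permuted within each training state, which allows 400 arrangements and no p below 0.005. The log2 ratio of the kinase Bckdk to its target subunit Bckdha was 0.47, 0.41 and 0.41 in Ctrl Sedentary and -0.04, -0.03 and 0.08 in Nrip1KO Sedentary, and 0.38, 0.46 and 0.42 in Ctrl Trained and -0.11, -0.25 and -0.12 in Nrip1KO Trained. All 6 Ctrl libraries were above all 6 Nrip1KO libraries, and the mean difference, Nrip1KO minus Ctrl, was -0.51 (exact two-sided permutation p = 0.005, the smallest possible, adjusted over the 5 ratios 0.00833).

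Within the complex, the ratio of Bckdha to Bckdhb was also shifted. Its log2 value ran from 1.02 to 1.19 in the Ctrl libraries and from 1.39 to 1.63 in the Nrip1KO libraries, a mean difference of 0.35 (exact permutation p = 0.005, adjusted 0.00833). The ratio of Bcat2 to Bckdha ran from -0.88 to -0.66 in Ctrl and from -1.22 to -0.97 in Nrip1KO, a mean difference of -0.35 (exact permutation p = 0.005, adjusted 0.00833). Bckdha thus differed by more than Bckdk, Bckdhb and Bcat2 did in the same libraries. These ratios all hold Bckdha, so they are not separate results. The ratios were not recomputed with GC content and length trends removed. The ratio of Bckdk to the phosphatase Ppm1k differed by 0.07 (exact permutation p = 0.635, adjusted 0.655), with 0.34 in sedentary and -0.21 in trained muscle. The ratio of Bdh1 to Oxct1 differed by 0.15 (exact permutation p = 0.655, adjusted 0.655).

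**Figure D3:**
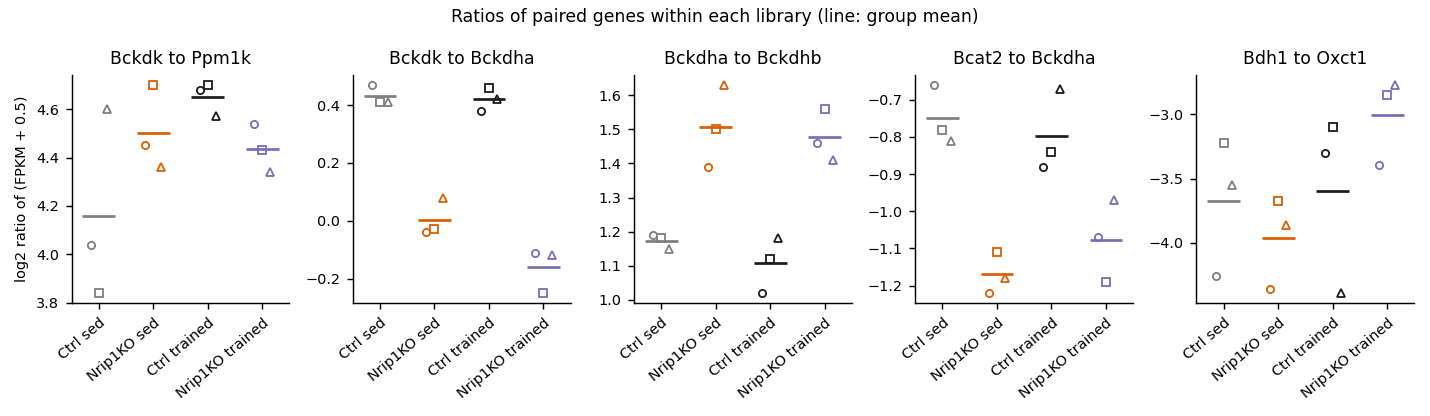
Log2 ratios of (FPKM + 0.5) for 5 gene pairs (vertical axes, each with its own range and not starting at 0) in the 12 libraries by group; symbols are replicates 1, 2 and 3 and lines are group means. The ratios of Bckdk to Bckdha, Bckdha to Bckdhb and Bcat2 to Bckdha separate the Ctrl from the Nrip1KO libraries without overlap, and the other 2 do not.

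The other genes of branched-chain amino acid oxidation and transport were read from the same test. Of 21 measured genes, 1 was called higher in sedentary and 3 in trained Nrip1KO muscle, beside 1.92% and 3.21% of all genes, and none was called lower. Hibch, which acts just before Hibadh on the valine branch, was higher in sedentary muscle (29.9 ± 0.579 against 21.5 ± 1.67 FPKM, SD, n = 3; log2 0.47, limma adjusted p = 0.0074) and had a log2 fold change of 0.22 in trained muscle (adjusted p = 0.109). The trained calls were Pccb, a subunit of propionyl-CoA carboxylase (log2 0.64, adjusted p = 0.0118), Echs1, the short-chain enoyl-CoA hydratase (log2 0.51, adjusted p = 0.0118), and Mccc2, a subunit of methylcrotonyl-CoA carboxylase on the leucine branch (log2 0.35, adjusted p = 0.03). In sedentary muscle Pccb, Echs1 and Mccc2 had log2 fold changes of 0.40, 0.33 and 0.32 (adjusted p = 0.107, 0.105 and 0.0641), and no difference between the training states passed the interaction test. The median log2 fold change of the 21 genes was 0.23 in sedentary and 0.24 in trained muscle.

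The regulators in that list showed no called difference. Ppm1k was at 5.42, 6.84 and 3.46 FPKM in Ctrl Sedentary and 4.75, 3.98 and 4.43 FPKM in Nrip1KO Sedentary (log2 -0.19, adjusted p = 0.711), and at 3.04, 3.39 and 3.21 FPKM in Ctrl Trained and 3.87, 4.29 and 4.78 FPKM in Nrip1KO Trained (log2 0.37, adjusted p = 0.28). Klf15, a transcription factor known for its control of amino acid breakdown in muscle, had log2 fold changes of -0.15 (adjusted p = 0.768) and 0.08 (adjusted p = 0.854).

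Of 8 other ketone body genes measured, none was called in either training state, with median log2 fold changes of 0.20 and 0.21. Slc16a7 differed most of the 8, with a log2 fold change of 1.64 in sedentary muscle (limma adjusted p = 0.102). It ran from 0.314 to 0.512 FPKM in Ctrl Sedentary and from 1.13 to 3.7 FPKM in Nrip1KO Sedentary, without overlap. In trained muscle its means were 0.725 FPKM in Ctrl and 1.91 FPKM in Nrip1KO, and the groups overlapped (adjusted p = 0.234). Slc16a1, a carrier of ketone bodies and lactate, had log2 fold changes of 0.27 (adjusted p = 0.279) and 0.22 (adjusted p = 0.301).

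The enzymes that exchange amino groups with the branched-chain aminotransferase reaction were Got1, Got2, Gpt, Gpt2 and Glud1. Of these 5 measured genes, 4 were called higher in Nrip1KO in both training states, beside 1.92% of all genes in sedentary and 3.21% in trained muscle. Got1, cytosolic aspartate aminotransferase, stood at 307 ± 15.4 FPKM in Ctrl Sedentary and 500 ± 17.6 FPKM in Nrip1KO Sedentary (SD, n = 3; log2 0.70, limma adjusted p = 0.000808) and differed by 0.69 in trained muscle. Got2, its mitochondrial counterpart, differed by 0.54 and 0.49, Gpt, cytosolic alanine aminotransferase, by 0.45 and 0.58, and Glud1, glutamate dehydrogenase, by 0.29 and 0.32, all on the log2 scale. Gpt2, mitochondrial alanine aminotransferase, had lower means in Nrip1KO without being called (log2 -0.50, adjusted p = 0.0718, and -0.39, adjusted p = 0.114).

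A reference for mitochondrial content was read beside these values. None of Cs, Vdac1, Tomm20 and Cox4i1 was called. All 4 had higher means in Nrip1KO, Tomm20 by a log2 fold change of only 0.01 in sedentary muscle. Their median log2 fold change was 0.18 in sedentary and 0.27 in trained muscle, beside 0.26 and 0.42 for the 10 genes under the same scaling. These 4 genes were not read under the other scalings. Their summed FPKM was 2580 to 2870 in Ctrl Sedentary, 2800 to 3880 in Nrip1KO Sedentary, 2520 to 2980 in Ctrl Trained and 3420 to 3490 in Nrip1KO Trained. Whether the 10 genes differed beyond this reference was not tested.

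**Figure D4:**
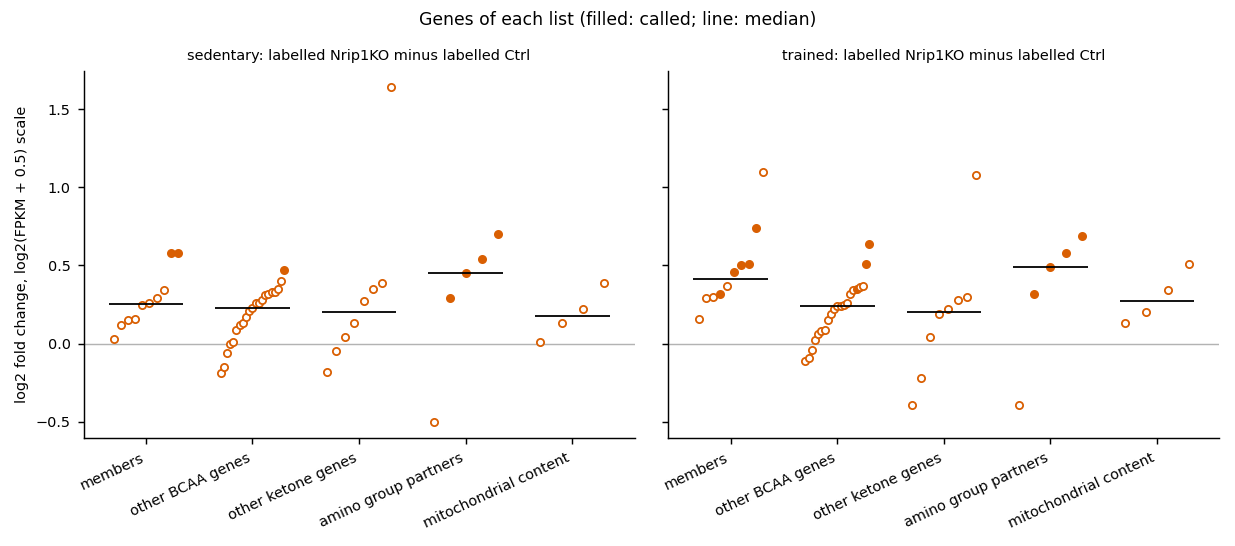
Log2 fold changes, Nrip1KO minus Ctrl, on the log2(FPKM + 0.5) scale in sedentary (left) and trained (right) muscle for the 10 genes, the other branched-chain amino acid (BCAA) genes, the other ketone body genes, the amino group partners and the mitochondrial content reference; each point is a gene, filled where called, and the line is the median of the list. Filled points lie above 0 in every list that has any, and the amino group partners have 4 of 5 filled in both panels.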

How the data were processed

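RNA-seq of EDL muscle was analysed in 12 libraries, 3 in each of 4 groups given by the labels. The authors deposited 1 table of FPKM values; per the study's methods and the submitters' processing notes, reads were quantified with Salmon 1.10.2 on mm10 and passed to DESeq2 1.44.0. The annotation release and the step that made FPKM are not given in the sources used here. The deposited fold changes and adjusted p-values of the authors' comparisons were not used, and no count model was run, since FPKM is not a count.

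After removal of genes whose mean lay under 0.5 FPKM, log2(FPKM + 0.5) was fitted with limma 3.58.1 (R 4.3.3) as 4 group means over all 12 libraries with an intensity trend in the prior, and p-values were Benjamini-Hochberg adjusted over 12744 genes. The interaction was called on the adjusted p alone. The procedure was tested on simulated data. Ratios were compared with an exact permutation test. Depth was read from values that are whole multiples of 1 fragment (99.0 to 100.0% whole within 0.15, over 1613 genes of 1 transcript); 3 fragments on a 2-kb transcript equal 0.0621 to 0.0904 FPKM, which covers counting error only. No pair of libraries held identical values.

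The 10 genes and all lists were chosen with earlier results of these data known, so their counts are no independent evidence. Named besides them were list genes called in a contrast (up to 6 a contrast, by fold change) and Ppm1k, Slc16a1 and Klf15; 1 further gene is not reported here. Gpt2, Slc16a7, B3gnt8 and the markers given with values fall outside this rule and were named after their values were seen. Promoter sequences came from RefSeq (GRCm38.p6) and gene positions from GENCODE M21, which matched 17732 gene identifiers. The marker lists also held macrophages, with no call, and endothelium. Of 5 endothelial markers, 1 was called: Tie1, higher in trained Nrip1KO muscle (log2 0.42), where Emcn was at -0.03. The endothelial markers summed to 66.1 to 73.3 FPKM in Ctrl Sedentary and 74.8 to 84.6 FPKM in Nrip1KO Sedentary. In trained muscle the sums were 65.2 to 75.5 FPKM in Ctrl and 82.7 to 85.1 FPKM in Nrip1KO. Their part in the results was not tested. Alternatives covered the pseudocount, filter, scaling, libraries in the fit, variance prior, replicate block, and GC content and length.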

Additional observations from a re-analysis of the deposited data

How the results depend on the processing

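Other settings were compared for the calls and the fold changes of the 10 genes. The 5 calls in trained muscle became 3 with no filter on low values, 3 with a variance prior without trend and 3 with the replicate block, and 2 to 7 when 1 library was left out. The 2 sedentary calls became 4 under quantile normalization, 4 with the same nuclear sum, 1 with only the libraries of the comparison, and 2 to 4 when 1 library was left out. The labels do not say what libraries with the same replicate number share. Deviations of same-numbered libraries correlated at -0.105 to 0.241, over 0.1 in 5 of 18 pairs. Those of other-numbered libraries correlated at -0.251 to 0.196, over 0.1 in 3 of 36 pairs. Whether same-numbered libraries shared a batch was not tested. Besides the calls named next, the block changed no call of the 10 genes. The calls lost under the block were Hibadh (adjusted p = 0.051) and Ivd (adjusted p = 0.0574). Calls over all genes with only the libraries of the comparison fell from 447 to 166 and from 762 to 445, and leaving out 1 library gave as few as 163 and 315. The fit with only the libraries of the comparison has fewer samples; the cause of the other changes was not tested.

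Reversals were of small, uncalled values. With the same sum, the Nrip1KO minus Ctrl difference in sedentary muscle was -0.03 for Dbt, 0 for Bckdk and -0.12 for Ivd, the running difference in Nrip1KO was 0.09 for Bckdk and 0.12 for Hibadh, and the interaction was 0.2 for Hibadh and 0.15 for Oxct1. Under quantile normalization the running difference of Acat1 in Nrip1KO was -0.03, and the interactions were -0.04 for Bckdk and -0.01 for Acat1. With the same nuclear sum these were -0.03, -0.03 and -0.02. With GC content and length trends removed, with or without the block, the running difference of Bckdhb in Ctrl was 0.05, and the interactions were -0.02 for Bckdk and 0.08 for Hibadh. When 1 library was left out, the sedentary genotype difference of Ivd ran from -0.06 to 0.17. The running difference in Ctrl ran from -0.07 to 0.06 for Bckdhb, -0.1 to 0 for Dbt, -0.09 to 0.01 for Hibadh, -0.14 to 0.64 for Bdh1 and -0.09 to 0.02 for Acat1, and in Nrip1KO from -0.03 to 0.13 for Bckdha, -0.06 to 0.21 for Bckdhb, -0.03 to 0.08 for Oxct1 and -0.07 to 0.05 for Acat1. The interaction ran from -0.04 to 0.23 for Bckdhb, -0.06 to 0.07 for Bckdk, -0.11 to 0.04 for Hibadh, -0.13 to 0.01 for Oxct1 and -0.05 to 0.09 for Acat1. The ratio of Bckdk to Ppm1k ran from -0.01 to 0.18 and that of Bdh1 to Oxct1 from -0.05 to 0.28.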
